A study of Mus musculus with 18 samples.

Results

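The onset of differentiation in TKO muscle stem cells (MuSCs) was examined by comparing 2 libraries taken after 1 day in differentiation medium with 2 libraries of the same genotype at day 0, which makes 4 of the 18 RNA-seq libraries of the series. No library or gene was selected by its measured change: the genes were the 11890 of 20612 gene symbols with at least 1 RPKM (reads per kilobase of transcript per 1000000 reads) in at least 2 of the 18 libraries. DSM-TKO cells carried heterozygous mutations of Dmpk, Six5 and Mbnl1, and came from mice of the strain label C57BL/6, 4 months old and semi-cloned, that is, made by injecting mutant haploid embryonic stem cells into oocytes. The other genotypes of the series were WT semi-cloned mice and DSMD-QKO mice, which carried a heterozygous mutation of Dmwd beside the other mutations, each with 2 libraries at days 0, 1 and 2. All of them, WT included, derive from a haploid line in which 2 differentially methylated regions of imprinted loci, H19-DMR and IG-DMR, were deleted, so the WT cells were not unmodified cells. Day 0 cells were MuSCs sorted from muscle and expanded on collagen in a T cell conditional medium, and day 1 cells had been moved to medium with horse serum. The labels call the day 1 samples fiber, although they were differentiating cultures. More than 1 mutant haploid line was used in the study, and neither the line behind these libraries nor whether the 2 libraries of a group came from separate animals or cultures is stated in the sources used here, so the p-values below measure only the spread between these samples, which may be technical.

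As background, MuSCs are held in a proliferating, undifferentiated state by growth factors, by Notch signalling and by Id proteins, which bind the partners of the myogenic basic helix-loop-helix factors. When mitogens are withdrawn, myoblasts leave the cell cycle, the factor myogenin (Myog) takes over from Myf5 and Pax7, and the cells fuse into myotubes that assemble sarcomeres and the calcium release machinery. In myotonic dystrophy, loss of free MBNL1 protein leaves many transcripts with fetal splice forms, which gene-level values such as these do not show.

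The 4 libraries held the markers of the labelled cells. The lineage markers Des, Cdh15, Itga7 and Myod1 were above 100 RPKM in each of the 4 libraries, and Pax7 stood at 24.9 and 20.8 RPKM at day 0. The day 0 cultures already contained transcripts of differentiating muscle, with Myog at 719 and 1085 RPKM and the skeletal actin Acta1 at 1052 and 1502 RPKM. Sca1 (Ly6a), a marker on which the sort selected against cells, was at 83.7 and 80.3 RPKM at day 0. The libraries of the whole series had an inferred depth, in units of 1000000 reads, of 34.8 to 60.7, and those compared here of 36.6 to 51.2, at which 1 read on a transcript of 1 kb is worth 0.0195 to 0.0273 RPKM. Replicates of a day correlated across genes at r = 0.9925 (day 0) and 0.9950 (day 1), against 0.8303 to 0.8613 between days.

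Of the genes tested, 6889 (57.9%) changed between day 0 and day 1, of which 1881 (15.8%) were higher at day 1 and 5008 (42.1%) were lower. The test was that of limma on log2(RPKM + 1), fitted over all 9 groups, with Benjamini-Hochberg adjusted p under 0.05, and all changes below are on this scale, with their SE, unless a fold of mean RPKM is given. Changes of at least 2-fold were seen for 890 genes that rose (7.49%) and 2300 that fell (19.3%). The preponderance of falls depended on how libraries were scaled. RPKM values are relative to all reads of a library. The share of summed RPKM held by the thick and thin filament lists went from 1.8% and 2.49% at day 0 to 12.56% and 12.49% at day 1, while the median gene changed by -0.31. With the median ratio between libraries set to 1, the median change was -0.009 and the calls were 3170 higher and 3315 lower. All 1881 rises and 3315 of the falls were called in both scalings, and no gene was called in opposite directions. Counts for gene lists are therefore given below in both scalings where they differ in what they show, and changes are read against the shift of -0.31. List counts are to be read beside those over all 11890 genes, 15.8% higher and 42.1% lower, or 3170 and 3315 genes after median-ratio scaling.

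**Figure D1:**
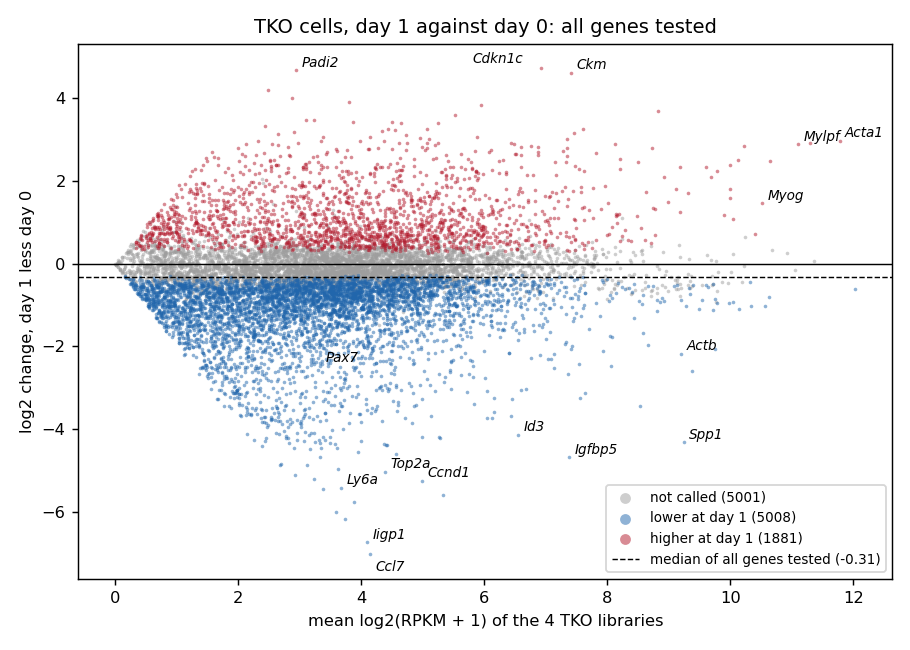
Each point is 1 of 11890 genes, with the mean log2(RPKM + 1) of the 4 TKO libraries on the x axis and the log2 change from day 0 to day 1 on the y axis. Coloured points passed the test, 1881 above 0 and 5008 below it, and labelled genes include the largest changes in each direction.

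The largest rises included Cdkn1c, a regulator of cell cycle exit, and muscle structural genes. Cdkn1c, which encodes the CDK inhibitor p57, was at 15 and 34.0 RPKM at day 0 and at 691 and 564 RPKM at day 1, a log2 change of 4.72 ± 0.40 (adjusted p = 4.4e-07). Ckm, the muscle creatine kinase, went from 19.3 and 57.6 RPKM to 839 and 846 RPKM (4.61 ± 0.46). In both genes the lowest day 1 library was more than 10 times the highest day 0 library. Padi2, a peptidylarginine deiminase, was below 1 RPKM in both day 0 libraries (0.445 and 0.596) and reached 39.6 and 36.2 RPKM, a 72.8-fold higher mean. Mafa, a bZIP transcription factor best known from pancreatic beta cells, went from 1.86 and 3.50 to 53.5 and 51.5 RPKM (3.90 ± 0.27). Others of the 15 largest rises were Mfap4 (an extracellular microfibril protein), Tspan13 (a tetraspanin), Tnnc2 (fast troponin C), Casq1 (the fast-fibre calsequestrin), Tagln (an actin-binding protein of smooth muscle), Asb2 (an ubiquitin ligase subunit) and Tcap (telethonin), with log2 changes from 3.41 to 4.19.

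The 15 largest falls included chemokines, interferon-induced GTPases, the cyclins Ccnd1 and Ccnb1 and genes of other kinds. Ccl7, a monocyte-attracting chemokine, went from 193 and 209 RPKM to 0.406 and 0.696 RPKM, a 364.2-fold lower mean (log2 change -7.03 ± 0.24, adjusted p = 3.3e-10). Iigp1, an interferon-inducible GTPase, went from 183 and 168 to 0.765 and 0.546 RPKM (-6.74 ± 0.29). Tgtp1 and Tgtp2, of the same class, fell by 6.00 and 6.17, but they are near-identical neighbours whose reads can be split between them. Gal, the neuropeptide galanin, went from 246 and 309 RPKM to 4.71 and 4.85 RPKM. Ccnd1, cyclin D1, which carries mitogen signals into the G1 phase, went from 214 and 176 to 3.51 and 4.9 RPKM (-5.24 ± 0.35). These genes were abundant in both day 0 libraries and near the lower end of detection, or at a few RPKM, in both day 1 libraries. Trp53i11 fell from 119 and 95.9 to 0.747 and 1.27 RPKM (-5.76 ± 0.19). Krt18 (a simple epithelial keratin), Ly6a, Ccl2 (another monocyte chemokine) and Top2a (the mitotic DNA topoisomerase) were also among the 15 largest falls, with log2 changes from -5.44 to -5.03.

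To show what sequence lies at the starts of genes that moved in opposite directions, the promoter of the member with the largest rise (fusion, thin filament and junction lists) or the largest fall (mitosis and DNA replication lists) among those listed in a RefSeq promoter table is given for the fusion (Dysf), thin filament (Tnnc2), junction (Erbb2), mitosis (Top2a) and DNA replication (Uhrf1) lists, whose values follow below. Each is the window of 300 bases from 250 before to 50 after the annotated start (GRCm38.p6), on the strand of the gene. Capitals mark matches on either strand to the E-box CANNTG, to which myogenic factors bind, the MCAT element CATTCC, to which TEAD factors bind, the CHR element TTTGAA of cell cycle promoters and the box CCAAT, some of which overlap.
Dysf, chr6:84008348-84008647 (plus strand): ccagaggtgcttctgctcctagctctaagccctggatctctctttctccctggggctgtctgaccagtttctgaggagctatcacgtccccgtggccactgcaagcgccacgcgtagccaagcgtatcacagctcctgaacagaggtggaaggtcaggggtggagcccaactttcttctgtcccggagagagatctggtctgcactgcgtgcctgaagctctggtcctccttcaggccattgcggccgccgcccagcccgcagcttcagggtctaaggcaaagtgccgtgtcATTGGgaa
Tnnc2, chr2:164779685-164779984 (minus strand): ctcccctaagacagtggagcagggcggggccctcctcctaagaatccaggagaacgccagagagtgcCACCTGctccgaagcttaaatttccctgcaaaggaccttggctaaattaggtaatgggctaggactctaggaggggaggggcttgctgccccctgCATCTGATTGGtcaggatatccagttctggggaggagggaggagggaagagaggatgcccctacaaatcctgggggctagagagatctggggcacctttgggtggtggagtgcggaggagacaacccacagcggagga
Erbb2, chr11:98412234-98412533 (plus strand): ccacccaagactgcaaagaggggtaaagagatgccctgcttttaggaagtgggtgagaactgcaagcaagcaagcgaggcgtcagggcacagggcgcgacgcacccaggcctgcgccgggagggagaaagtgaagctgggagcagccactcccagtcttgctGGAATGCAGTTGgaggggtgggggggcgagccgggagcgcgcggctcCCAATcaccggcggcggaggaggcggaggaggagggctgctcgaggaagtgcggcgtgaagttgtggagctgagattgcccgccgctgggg
Top2a, chr11:99024140-99024439 (minus strand): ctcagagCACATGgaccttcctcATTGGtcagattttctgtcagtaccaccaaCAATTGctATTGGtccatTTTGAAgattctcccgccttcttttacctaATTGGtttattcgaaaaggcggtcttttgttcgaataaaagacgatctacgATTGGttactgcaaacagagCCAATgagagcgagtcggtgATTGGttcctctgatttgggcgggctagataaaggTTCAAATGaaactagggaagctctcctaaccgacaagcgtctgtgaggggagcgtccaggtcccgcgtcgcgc
Uhrf1, chr17:56303087-56303386 (plus strand): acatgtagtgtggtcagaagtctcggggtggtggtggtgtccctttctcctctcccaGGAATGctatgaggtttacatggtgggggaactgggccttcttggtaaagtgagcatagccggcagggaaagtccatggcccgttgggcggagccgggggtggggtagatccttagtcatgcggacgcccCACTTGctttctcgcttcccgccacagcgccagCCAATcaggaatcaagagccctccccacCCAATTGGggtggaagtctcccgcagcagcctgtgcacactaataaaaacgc

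The Tnnc2 window held 2 E-boxes and 1 CCAAT box, that of Erbb2 1 E-box, 1 MCAT element and 1 CCAAT box, and that of Dysf 1 CCAAT box and no match to the others. That of Top2a held 3 E-boxes, 2 CHR elements and 6 CCAAT boxes, and that of Uhrf1 2 E-boxes, 1 MCAT element and 3 CCAAT boxes. Of all 32851 promoters in the table, 72.3% held an E-box, 16.3% its form CAGCTG (also counted as an E-box), 14.7% an MCAT element, 17.9% a CHR element and 37.4% a CCAAT box. Thin filament genes (23 promoters of 20 genes) held CAGCTG in 47.8% and an MCAT element in 26.1% of promoters, and thick filament genes (24 promoters of 22 genes) in 37.5% and 33.3%. Mitosis genes (72 promoters of 66 genes) held a CHR element in 68.1% and a CCAAT box in 75% of promoters. These are counts of letters with no test, and they name no site or factor. For the DNA replication, fusion and junction lists and for all genes that rose or fell, under 80% of members had a promoter in the table, so a share over them is void and is not given.

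**Figure D2:**
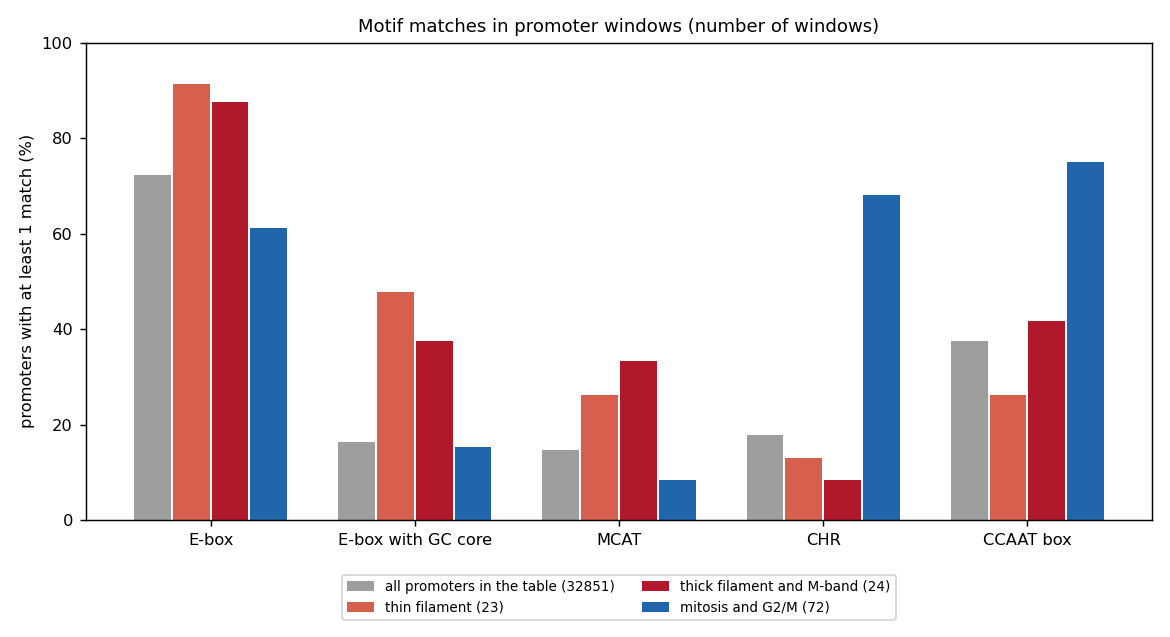
Bars give the percentage of promoter windows of 300 bases with at least 1 match to each motif, for all promoters in the table and for the thin filament, thick filament and mitosis lists, with the number of windows in the legend (the E-box with GC core has the letters CAGCTG). That form was found in 47.8% of the thin filament windows and the CHR element in 68.1% of the mitosis windows, beside 16.3% and 17.9% of all promoters.

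Of 18 tested stem cell markers, 11 fell and 4 rose, against 42.1% and 15.8% of all genes, with a median change of -1.86 (6 higher and 10 lower after median-ratio scaling). Pax7, the transcription factor that defines satellite cells, went from 24.9 and 20.8 RPKM to 3.90 and 2.75 RPKM (-2.47 ± 0.31, adjusted p = 1.7e-05). Vcam1, an adhesion molecule used to isolate satellite cells, went from 56.4 and 46.5 to 2.26 and 2.25 RPKM (-4.00 ± 0.21). The surface markers did not move together. Cd34, on which the sort selected, went from 5.70 and 5.37 RPKM to 0.321 and 1.17 RPKM, whereas Itga7, the other positive sort marker, was at 217 and 188 RPKM at day 0 and 195 and 216 RPKM at day 1 (0.02 ± 0.17, adjusted p = 0.92). Cdh15, M-cadherin, rose from 127 and 124 to 205 and 197 RPKM (0.68 ± 0.16). The other markers that rose were Ncam1, an adhesion molecule (1.52), Spry1, which damps growth factor signalling (1.55), and Tenm4, a transmembrane teneurin (0.87).

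The Notch list had 13 members that fell and 3 that rose of 22 tested (median -0.64), against 42.1% and 15.8% of all genes. After median-ratio scaling 9 of its members fell and 5 rose, against 3315 and 3170 of all 11890 genes. Hes1, a Notch target and repressor, went from 34.6 and 30.1 RPKM to 12 and 13.6 RPKM (-1.28 ± 0.25), and Lfng, which glycosylates Notch receptors, went from 7.68 and 8.26 to 0.339 and 0.379 RPKM. The 3 that rose were the Hes-related repressor Heyl (1.02), Numbl, related to the Notch inhibitor Numb (0.74), and Dtx2, a deltex ubiquitin ligase (0.68). The Id proteins changed more. Id3 went from 381 and 405 RPKM to 22.3 and 20.3 RPKM (-4.14 ± 0.28, adjusted p = 7.2e-08). Id1 went from 252 and 304 to 34.6 and 30.4 RPKM (-3.05 ± 0.25). Id2 went from 180 and 185 to 13.6 and 20.3 RPKM (-3.38 ± 0.20). No day 1 library of any of these Id genes reached a day 0 library. Of the 24 tested genes of the Id and BMP list as a whole, 11 fell and 5 rose, not far from the 42.1% and 15.8% of all genes. After median-ratio scaling 10 fell and 5 rose, against 3315 and 3170 of all 11890 genes. Those that rose were the ligand Bmp2 (0.56), the BMP antagonists Nog (1.12) and Chrd (1.88) and the BMP co-receptors Rgma (2.20) and Hfe2 (2.50).

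The myogenic regulators moved in both directions: of 49 tested factors and cofactors, 18 rose and 16 fell, against 15.8% and 42.1% of all genes. The median was 0.17 (21 and 15 with a median of 0.52 after median-ratio scaling). Myf5, the factor of proliferating myoblasts, went from 52.6 and 48.3 RPKM to 8.66 and 5.30 RPKM (-2.72 ± 0.44, adjusted p = 1.3e-04). Myog went from 719 and 1085 to 2482 and 2396 RPKM (1.46 ± 0.28, adjusted p = 4.8e-04). Mef2c, which works with the myogenic factors on muscle genes, went from 32.9 and 40.9 to 181 and 169 RPKM (2.22 ± 0.38). Myf6, the factor of mature fibres, went from 2.79 and 3.72 to 17.6 and 12.6 RPKM (1.91 ± 0.23). Myod1, the determination factor, stood at 904 and 1009 RPKM at day 0 and 834 and 825 RPKM at day 1, which did not pass the test (-0.20 ± 0.22, adjusted p = 0.45). At day 2, in libraries outside the comparison of days 0 and 1, Myog was at 1091 and 991 RPKM and Myod1 at 369 and 377 RPKM, and both were lower than at day 1 (-1.23 ± 0.28, adjusted p = 0.020, and -1.15 ± 0.22, adjusted p = 0.0097).

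**Figure D3:**
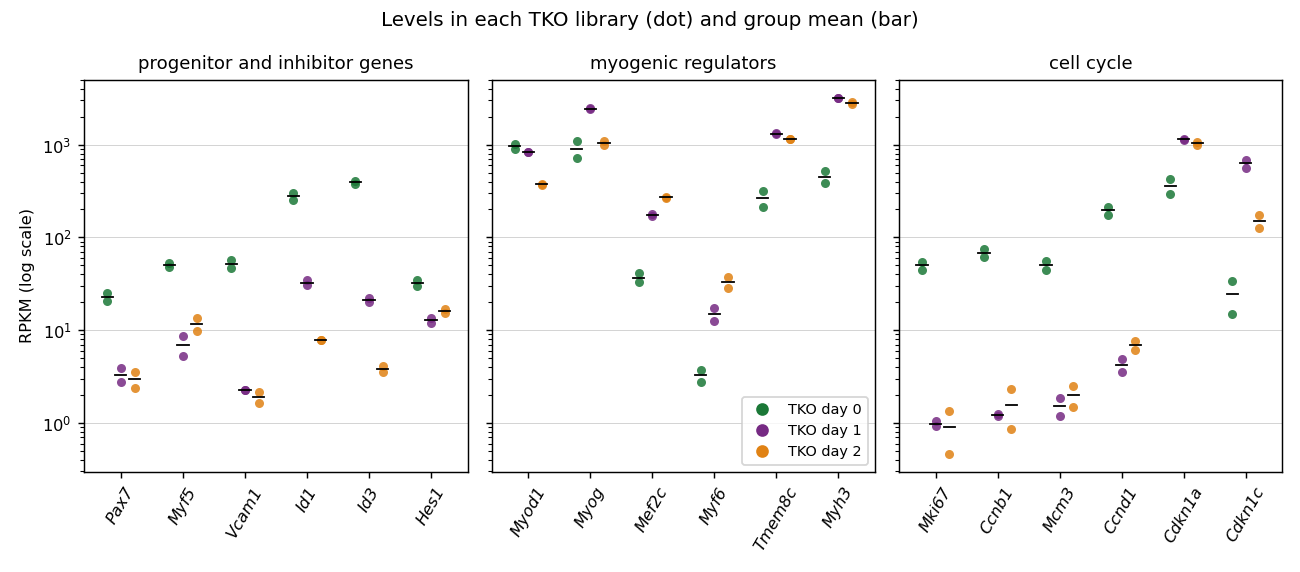
RPKM on a log axis of named regulators in the 2 TKO libraries of each of days 0, 1 and 2, with 1 dot per library and a bar at the group mean. Pax7, Myf5 and the Id genes were lower at day 1 than at day 0, Myog, Mef2c and Myf6 were higher, and the levels of Myod1 at days 0 and 1 lay close together.

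Fusion genes moved in both directions. Of 32 tested, 13 rose and 12 fell, against 15.8% and 42.1% of all genes. The median was 0.00 (15 and 9 with a median of 0.35 after median-ratio scaling). Both muscle-specific fusogens rose. Tmem8c, which encodes myomaker, went from 212 and 315 RPKM to 1292 and 1320 RPKM (2.33 ± 0.21, adjusted p = 6.1e-07). Gm7325, which encodes myomixer, went from 37.7 and 61.5 to 216 and 219 RPKM (2.15 ± 0.43, adjusted p = 7.3e-04). Dysf, dysferlin, a membrane repair protein, had the largest rise of the list, from 5.27 and 7.79 to 54.9 and 58.9 RPKM (2.96 ± 0.16). Anxa1, an annexin that binds membrane phospholipids, fell from 540 and 635 to 58.6 and 74.9 RPKM (-3.12 ± 0.28).

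The lists of contractile genes had the highest median changes of the 39 lists. Of 25 tested thick filament and M-band genes, 18 rose and none fell (median 2.08), of 24 thin filament genes 20 rose and 2 fell (median 2.17), and of 31 Z-disc and intermediate filament genes 26 rose and 1 fell (median 1.89). All called genes higher made up 15.8% of the genes tested. Acta1 went from 1052 and 1502 to 10071 and 9593 RPKM (2.97 ± 0.29, adjusted p = 1.8e-06), the cardiac actin Actc1, which skeletal muscle expresses in development, from 780 and 1073 to 7112 and 6721 RPKM (2.92 ± 0.26), and the embryonic heavy chain Myh3 from 384 and 514 to 3219 and 3178 RPKM (2.84 ± 0.33). The perinatal heavy chain Myh8 went from 52.7 and 62.3 to 537 and 511 RPKM (3.17 ± 0.40). The largest rise of the thick filament list was that of Myh4, an adult fast heavy chain, from 0.254 and 1.31 to 13.4 and 19.3 RPKM (3.32 ± 0.57). In each of these genes both day 1 libraries lay above both day 0 libraries, and Actc1, Myh3 and Myh8 are developmental isoforms. The thin filament genes that fell were the tropomyosin Tpm3 (140 and 111 to 23.8 and 23.3 RPKM, -2.35 ± 0.25) and the cardiac troponin Tnni3, which was at most 1.22 RPKM in the 4 libraries and lost its call after median-ratio scaling (-0.68, adjusted p = 0.061). The Z-disc gene that fell was Ankrd1, a stretch-responsive ankyrin repeat protein (640 and 629 to 310 and 363 RPKM), whose call was also lost with that scaling (-0.56, adjusted p = 0.14). The cytoplasmic actin Actb, a gene often used as a reference, fell from 1434 and 1085 to 289 and 260 RPKM (-2.18 ± 0.18), and by 1.82 after median-ratio scaling.

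**Figure D4:**
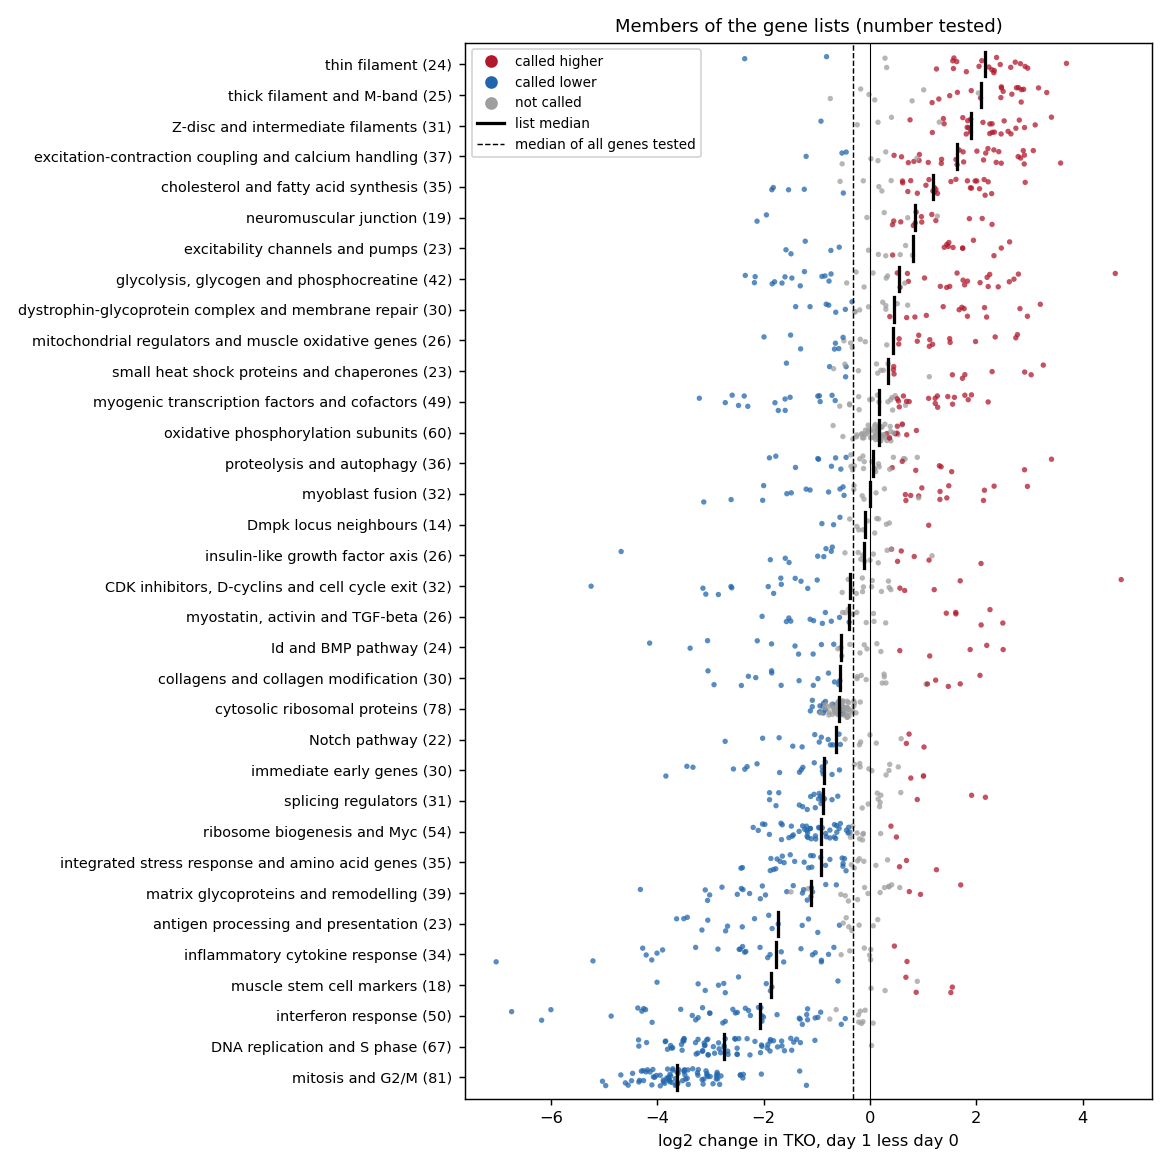
Each dot is a tested member of a gene list, at its log2 change in TKO from day 0 to day 1, coloured by whether it was called higher, called lower or not called, with a thick bar at the list median and a dashed line at the median of all genes tested (-0.31). Filament, Z-disc and calcium handling genes lie mostly to the right, with medians from 1.64 to 2.17, and DNA replication and mitosis genes to the left, with medians of -2.74 and -3.63.

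Membrane systems of the muscle cell followed. In the list of excitation-contraction coupling and calcium handling 29 of 37 members rose and 3 fell (median 1.64), against 15.8% and 42.1% of all genes. Among those that fell, the calcium release channel Itpr1 (-1.20) was also called after median-ratio scaling, and Fkbp1a, which binds the ryanodine receptor (-0.45), was not (adjusted p = 0.64). Casq1, which stores calcium in the sarcoplasmic reticulum, went from 7.87 and 18.9 to 125 and 200 RPKM (3.58 ± 0.56). The pump Atp2a1 went from 122 and 192 to 831 and 876 RPKM (2.47 ± 0.29), the calcium release channel Ryr1 from 24.9 and 35.9 to 88.8 and 102 RPKM (1.64 ± 0.18), and the voltage sensor subunit Cacna1s from 14.4 and 20.4 to 77.0 and 90.8 RPKM (2.22 ± 0.28). Of 19 neuromuscular junction genes 13 rose and 2 fell, against the same shares of all genes. Among its receptors, Erbb3, a neuregulin receptor, went from 14.9 and 20.4 to 90.8 and 88.3 RPKM (2.30 ± 0.28), its partner Erbb2 from 10.2 and 11.4 to 49.2 and 50.6 RPKM (2.11 ± 0.22), and the fetal acetylcholine receptor subunit Chrng from 115 and 146 to 489 and 467 RPKM (1.87 ± 0.17). The ligand side gave the opposite sign in Agrn, agrin, which organizes the junction (12.4 and 12.6 to 2.20 and 2.82 RPKM, -1.95 ± 0.19). The other member that fell was Etv5, an ETS transcription factor (-2.12). Against 15.8% and 42.1% of all genes, 14 of 30 dystrophin complex and membrane repair genes rose and 7 fell (18 and 3 after median-ratio scaling). Of 23 excitability channels and pumps, against the same shares, 12 rose and 5 fell. Among those that fell were the sodium channel subunit Scn3b (-1.48) and the pacemaker channel Hcn2 (-0.73). Clcn1, the chloride channel whose missplicing causes myotonia, was below 1 RPKM in each of the 4 libraries (0.267, 0.185, 0.410 and 0.326).

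Of 42 tested genes of glycolysis, glycogen and phosphocreatine, 21 rose and 14 fell (median 0.54), against 15.8% and 42.1% of all genes. The muscle phosphofructokinase Pfkm went from 21.9 and 30.04 to 126 and 127 RPKM (2.25 ± 0.22), whereas the liver type Pfkl went from 47.2 and 43.1 to 8.03 and 8.14 RPKM (-2.34 ± 0.27). Hk2, a hexokinase, fell from 23 and 18.9 to 5.19 and 5.05 RPKM (-1.84 ± 0.24). Most of the 60 oxidative phosphorylation subunits did not pass the test. A share near the 15.8% of all genes rose (8), and none fell, against 42.1% of all genes. The median was 0.16, against -0.31 for all genes. The number called in this list depended on scaling and was 26 higher and 0 lower with the median ratio. Of the list, Ndufs4, a complex I subunit, went from 21.4 and 24.2 to 45.6 and 39.6 RPKM (0.87 ± 0.22, adjusted p = 0.0039). Genes of cholesterol synthesis and lipid supply rose in 25 of 35 cases and fell in 5, against 15.8% and 42.1% of all genes. Idi1, the isopentenyl diphosphate isomerase, went from 11.4 and 14.5 to 126 and 85.9 RPKM (2.92 ± 0.24), and Hmgcs1, which makes the precursor of mevalonate, from 19.2 and 21.8 to 90.4 and 70.1 RPKM (1.91 ± 0.19). The 5 that fell act in fatty acid rather than sterol synthesis: the elongases Elovl5 (-1.82) and Elovl6 (8.72 and 8.52 to 2.49 and 2.17 RPKM, -1.53 ± 0.25), the desaturase Fads1 (-1.84), the carboxylase Acaca (-1.23) and the synthase Fasn (-0.50), the last of which lost its call after median-ratio scaling (adjusted p = 0.46).

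The cell cycle lists had almost no member that did not fall. All 81 mitosis and G2/M genes fell (median -3.63) and so did 66 of 67 DNA replication genes (median -2.74), against 42.1% of all genes, and both counts were the same after median-ratio scaling. Mki67, the proliferation marker, went from 55.0 and 45.1 RPKM to 1.04 and 0.916 RPKM (-4.68 ± 0.47, adjusted p = 1.9e-06). Ccnb1, cyclin B1, which drives entry into mitosis, went from 74.6 and 62.3 to 1.18 and 1.24 RPKM (-4.97 ± 0.42). Top2a went from 132 and 106 to 2.88 and 2.43 RPKM (-5.03 ± 0.47), with the CHR-holding promoter shown above. Of the replication genes, Uhrf1, which guides methylation of new DNA, went from 61.1 and 45.6 to 2.02 and 1.30 RPKM (-4.35 ± 0.26), and Mcm3, a subunit of the replicative helicase, from 55.4 and 44.4 to 1.85 and 1.17 RPKM (-4.35 ± 0.26). E2f2, an E2F transcription factor, was the exception, at 12.4 and 14.4 RPKM at day 0 and 14.7 and 12.7 RPKM at day 1 (0.03 ± 0.27, adjusted p = 0.93). After median-ratio scaling, 10 of 32 genes of cell cycle exit rose and 14 fell. Without that scaling 5 rose and 14 fell, close to the 15.8% and 42.1% of all genes. Beside Cdkn1c, the genes that rose were the retinoblastoma gene Rb1 (1.21), the antiproliferative Btg2 (0.56), the stress-induced Gadd45a (0.65) and Cdkn1a. The CDK inhibitor p21 (Cdkn1a) rose from 296 and 421 to 1164 and 1131 RPKM (1.70 ± 0.19, adjusted p = 6.0e-06). At day 2, Cdkn1c had come down to 177 and 127 RPKM (-2.05 ± 0.40 against day 1, adjusted p = 0.011), while Cdkn1a stood at 1001 and 1078 RPKM.

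Ribosome biogenesis factors fell in 43 of 54 cases, against 42.1% of all genes, and rose in 2, Bop1 (0.50) and Rrp12 (0.40), both factors of ribosomal RNA processing (32 and 3 after median-ratio scaling). Npm1, nucleophosmin, a nucleolar protein, went from 848 and 759 to 209 and 198 RPKM (-1.98 ± 0.16), and Myc, which drives ribosome production, from 43.3 and 30.8 to 7.15 and 8.39 RPKM (-2.10 ± 0.27). Of 78 ribosomal protein genes 17 were called lower, a smaller share than the 42.1% of all genes, and none higher. Their median change of -0.58 was nonetheless a larger fall than the -0.31 of all genes. After median-ratio scaling 5 fell (Rpl3, Rpl4, Rpl12, Rps2 and Rpsa), and the median was -0.22, against -0.009 for all genes. Genes of the integrated stress response fell in 25 of 35 cases and rose in 3, against 42.1% and 15.8% of all genes (17 and 4 after median-ratio scaling). Those that rose without that scaling were Xbp1 (0.69) and Herpud1 (1.25), genes of the endoplasmic reticulum stress response, and Ppp1r15a (0.56), a phosphatase subunit that ends the response. Of 36 genes of proteolysis and autophagy 8 rose and 9 fell, against 15.8% and 42.1% of all genes. After median-ratio scaling 17 of them rose and 5 fell, against 3170 and 3315 of all 11890 genes. Of the muscle ubiquitin ligases, Trim63 (MuRF1) rose from 6.01 and 10.4 to 69.4 and 62.8 RPKM (2.91 ± 0.29) and Fbxo32 (atrogin-1) fell from 20.3 and 19.6 to 4.69 and 4.6 RPKM (-1.89 ± 0.21). Of 23 small heat shock proteins and chaperones 10 rose and 4 fell, against 15.8% and 42.1% of all genes (15 and 1 after median-ratio scaling). Those that rose included 2 small heat shock proteins abundant in muscle, Hspb7 from 4.33 and 8.14 to 66.2 and 65.5 RPKM (3.26 ± 0.35) and Cryab, alpha-B crystallin, from 110 and 159 to 681 and 625 RPKM (2.30 ± 0.25).

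Interferon-stimulated genes fell in 41 of 50 cases and none rose, against 42.1% and 15.8% of all genes. Their median was -2.07, and the counts were the same after median-ratio scaling. Irf1, an interferon-induced transcription factor, went from 35.6 and 27.2 to 3.07 and 2.91 RPKM (-3.01 ± 0.16). The medium itself differed between days, a T cell conditional medium at day 0 and horse serum medium at day 1. The change of medium and the onset of differentiation therefore cannot be told apart, for these genes or any other in the comparison. In the antigen presentation list 16 of 23 genes fell and none rose, against the same shares of all genes. Psmb8, an immunoproteasome subunit, went from 54.0 and 54.1 to 3.70 and 3.17 RPKM (-3.64 ± 0.22), and Tap1, a peptide transporter, from 42.5 and 39.7 to 2.76 and 3.04 RPKM (-3.43 ± 0.26). The class I genes themselves were not called: B2m was at 1042 and 1164 RPKM at day 0 and 979 and 935 RPKM at day 1 (adjusted p = 0.42), and H2-K1 at 166 and 188 RPKM, then 183 and 185 RPKM (adjusted p = 0.82), although H2-K1 belongs to a family of similar genes that can share reads. Inflammatory genes fell in 26 of 34 cases and rose in 2, against 42.1% and 15.8% of all genes. Csf1, the macrophage growth factor, was among those that fell (186 and 149 to 6.51 and 9.97 RPKM, -4.21 ± 0.33). The pair that rose was Tnfaip3, an inhibitor of NF-kappaB signalling (0.70), and Sod2, the mitochondrial superoxide dismutase (0.46). Of 30 immediate early genes 18 fell, against 42.1% of all genes, and 2 rose, Nr4a1 (1.01) and Zfp36 (0.77), against 15.8% (13 and 4 after median-ratio scaling).

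Secreted and matrix genes were mixed. After median-ratio scaling, 13 of 30 genes of collagens and their modification fell and 7 rose, against 3315 and 3170 of all 11890 genes. Of 39 other matrix genes 19 fell and 7 rose with that scaling. Without it, 15 collagen genes fell and 5 rose, not far from the 42.1% and 15.8% of all genes, and 22 other matrix genes fell and 3 rose. The collagen genes that rose were Col1a1 (1.70), Col5a1 (1.08), Col5a3 (1.47), Col25a1 (1.24) and Loxl1, and the other matrix genes were Ctgf, a matricellular growth factor (1.71), and the basement membrane proteins Nid2 (0.95) and Hspg2 (0.74). Col3a1, the fibrillar collagen III chain, went from 84.6 and 85.4 to 9.76 and 10.8 RPKM (-2.93 ± 0.19). Spp1, osteopontin, went from 2353 and 3115 to 99.5 and 183 RPKM (-4.32 ± 0.61). Loxl1, a lysyl oxidase that crosslinks elastin, rose from 5.67 and 7.18 to 27.6 and 32.6 RPKM (2.07 ± 0.32). In the insulin-like growth factor list, 6 of 26 rose and 9 fell, not far from the 15.8% and 42.1% of all genes (6 and 7 after median-ratio scaling). The ligand Igf2 rose from 188 and 291 to 990 and 1006 RPKM (2.09 ± 0.26, adjusted p = 1.7e-05) and the binding protein Igfbp5 fell from 808 and 872 to 32.2 and 31.5 RPKM (-4.68 ± 0.40, adjusted p = 4.9e-07). Igf2 and Cdkn1c are imprinted genes, and Igf2 lies beside the H19 region that was deleted in the founder line of all 3 genotypes. Of the TGF-beta family, 6 of 26 members rose and 11 fell, shares close to the 15.8% and 42.1% of all genes (6 and 6 after median-ratio scaling). Myostatin itself (Mstn, 1.44) and its antagonists Fst (1.62) and Fstl3 (1.37 and 1.46 to 11.7 and 13.7 RPKM, 2.50 ± 0.32) were among those that rose.

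The targeted genes were all detected in TKO, where a normal allele remains and a mutant allele may still be transcribed, so gene-level values do not test the genotype fully. Dmpk, the kinase mutated in myotonic dystrophy, was at 203 and 196 RPKM at day 0 in TKO, below the 237 and 341 RPKM of WT, and Six5 was at 1.59 and 1.36 RPKM, below the 2.26 and 3.39 RPKM of WT. Mbnl1, the splicing regulator, was at 21.0 and 16.9 RPKM in TKO and 18.9 and 7.23 RPKM in WT, and the exon deletion in it cannot be seen at this level. From day 0 to day 1 in TKO, Dmpk went to 259 and 237 RPKM (0.31 ± 0.19, adjusted p = 0.17, but 0.67 and adjusted p = 0.0049 after median-ratio scaling). Six5 went to 0.784 and 1.02 RPKM (-0.38 ± 0.16, adjusted p = 0.061). Mbnl1 fell to 9.84 and 8.64 RPKM (-0.96 ± 0.30, adjusted p = 0.014), a call that was lost after median-ratio scaling (-0.62, adjusted p = 0.092) and without day 0 replicate 1 (-0.81, adjusted p = 0.10) or day 1 replicate 2 (-0.87, adjusted p = 0.078). Dmwd, which TKO leaves intact, went from 60.7 and 55.5 to 66.5 and 63.6 RPKM (0.16, adjusted p = 0.44, but 0.52 and adjusted p = 0.015 after median-ratio scaling). Of 31 splicing regulators 20 fell and 3 rose, against 42.1% and 15.8% of all genes (17 and 7 after median-ratio scaling). Ptbp1, which represses muscle and neuronal exons, fell from 96.2 and 79.2 to 25.4 and 26.5 RPKM (-1.71 ± 0.15), while Rbm38 rose from 32.5 and 42.9 to 169 and 174 RPKM (2.17 ± 0.18) and Rbfox1 from 2.84 and 3.66 to 14.0 and 15.9 RPKM (1.91 ± 0.25), with Rbm20, the titin splicing factor, as the other rise (0.89). Of 14 neighbours of Dmpk, 1 rose, the reticulon Rtn2 (1.11), and 3 fell, Ccdc61, Qpctl and Snrpd2, against 15.8% and 42.1% of all genes. After median-ratio scaling 7 were called higher and 0 lower, against 3170 and 3315 of all 11890 genes.

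Markers of other cells moved in different directions. Of 13 fibroblast and fibro-adipogenic markers, 8 were below 1 RPKM in each of the 4 libraries with Tcf21 at 0. The summed level of all 13 went from 96.2 and 91.9 RPKM at day 0 to 4.78 and 6.82 RPKM at day 1. Ly6a made up most of the sum at day 0. Of the 6 tested, 4 fell and 1 rose, and Pdgfrb went from 0.187 and 0.357 to 1.63 and 1.92 RPKM. Of 17 endothelial and haematopoietic markers 12 were below 1 RPKM with Tyrobp at 0, and the sums were 13.2 and 13.0, then 4.86 and 5.96 RPKM. Of the 5 tested, 3 fell and 1 rose. Laptm5 went from 6.47 and 7.75 to 0.847 and 1.17 RPKM, whereas Itgam went from 0.228 and 0.276 to 2.31 and 2.12 RPKM. Adipocyte markers summed to 3.70 and 7.03, then 1.51 and 1.95 RPKM, with Adipoq at 0 and 5 of 7 below 1 RPKM. Schwann cell and neuronal markers summed to 75.2 and 43.5, then 26.2 and 14.5 RPKM, with Snap25 at 0 and 7 of 9 below 1 RPKM, and Tubb3, a tubulin, made up most of the sum (68.6 and 37.3, then 25.0 and 13.4 RPKM). Pericyte and smooth muscle markers, which include Des of muscle itself, summed to 1164 and 1322, then 3290.0 and 3229 RPKM, with 3 of 10 below 1 RPKM, and the smooth muscle actin Acta2 (601 and 568, then 1802 and 1731 RPKM) and Des made up most of the sum. In a culture of mixed cells, fewer cells of a type and less RNA per cell cannot be told apart, and the part of other cells in the changes above was not tested.

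The change from day 0 to day 1 was set against that in WT and QKO by testing the difference of the changes. The change in TKO differed from that in WT for 1111 genes (9.34%), of which 438 were larger (or less negative) in TKO and 673 smaller. The number moved when single libraries were left out, and it was highest without WT day 0 replicate 1. The 2 WT day 0 libraries differed from each other. Their summed RPKM was 423059 and 555791, against 397219 to 420795 in the 4 TKO libraries compared, and their Pax7 was at 27.6 and 11.7 RPKM. Every comparison with WT here rests on this pair. Acta1, Myog and Tmem8c began from a higher level in both TKO libraries. In WT, Acta1 had 312 and 177 RPKM at day 0, below the 1052 and 1502 RPKM of TKO, and reached 10233 and 8574 RPKM at day 1, so its rise was smaller in TKO by 2.35 ± 0.42 on the log2 scale (adjusted p = 0.0033). WT cells had 214 and 182 RPKM of Myog at day 0 and 2362 and 2377 RPKM at day 1 (difference -2.12 ± 0.39, adjusted p = 0.0042). Tmem8c was at 61.8 and 46.5 RPKM, then 1315 and 1220 RPKM (-2.20 ± 0.29, adjusted p = 3.9e-04). In the lists, 11 of 25 thick filament, 13 of 24 thin filament and 13 of 49 myogenic regulator genes differed from WT. All of these had a smaller rise or a larger fall in TKO. Of 50 interferon-stimulated genes 31 differed, all with the smaller fall in TKO. For example, Gbp2 began at 294 and 226 RPKM in WT and 48.0 and 43.9 RPKM in TKO. At day 1 it was at 1.48 and 0.874 RPKM in WT and 0.613 and 0.606 RPKM in TKO. Tgtp1 began at 342 and 338 RPKM in WT and 95.4 and 95.7 RPKM in TKO. At day 1 it was at 0.543 and 0.777 RPKM in WT and 0.402 and 0.626 RPKM in TKO.

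**Figure D5:**
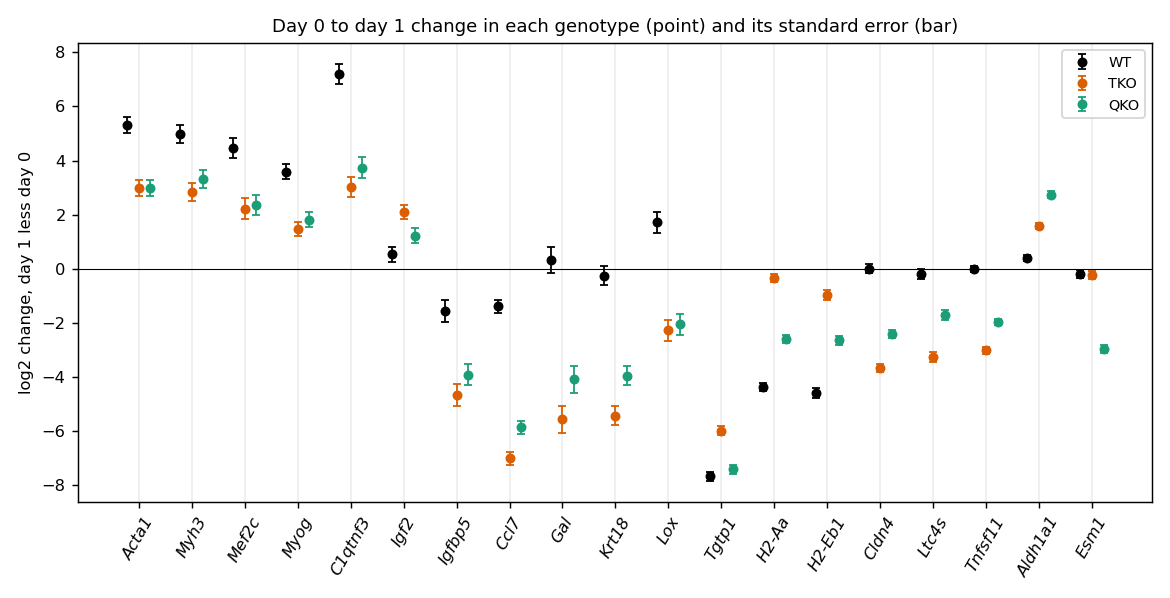
Points give the log2 change from day 0 to day 1 in WT, TKO and QKO, and bars its SE, for muscle genes and for genes with the largest differences between genotypes. Acta1, Myh3, Mef2c and Myog rose more in WT than in TKO. Gal, Ccl7 and Krt18 fell in both TKO and QKO, and further in TKO than in WT.

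Against QKO, the difference of changes was called for 25 genes (0.21%), 20 larger in TKO and 5 smaller, with 705 genes at an unadjusted p under 0.05. This count went from 6 to 97 as single libraries were left out (6 without TKO day 1 replicate 1, 8 without TKO day 0 replicate 2, TKO day 1 replicate 2 or QKO day 1 replicate 1, 12 without QKO day 1 replicate 2, 51 without either WT day 0 library, 97 without QKO day 0 replicate 2). With limma voom on the reads recovered from the RPKM values it was 0. Acta1 did not pass this test (difference -0.01 ± 0.42, adjusted p = 1.0). Myf5 fell in TKO by 2.72, from levels above the 16.2 and 11.3 RPKM of WT, in which it stood at 16.1 and 23.3 RPKM at day 1 (difference -3.21 ± 0.62, adjusted p = 0.0054), and its change did not pass the test of a difference from QKO (-0.85 ± 0.62, adjusted p = 0.96).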

How the data were processed

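RNA was taken from MuSC cultures (TRIZOL, TruSeq libraries), and the deposited RPKM values, which the authors made with HISAT2 2.0.5 and StringTie (version not given in the sources used here) on protein-coding genes of GRCm38.p5, were used as they stand. Of 22013 rows, 1401 with a repeated symbol and a lower mean were dropped. RPKM is not a count, so log2(RPKM + 1) was tested with limma 3.58.1 (R 4.3.3): 1 mean for each of 9 groups, trended and robust moderation, Benjamini-Hochberg adjustment over 11890 genes. The RPKM steps gave whole reads in 16542 of 16548 rows (99.964%, within 0.02 reads), against 1 of 3000 control rows, and these reads gave the depth, limited precision at low values, and served for limma voom on 11884 genes. Samples were grouped by their labels. Scaling, pseudocount, filter, samples fitted, replicate number and left-out libraries were varied. Figures used Matplotlib 3.10.9 with Python 3.11.15.

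The comparison, the members and the lists were chosen with earlier results of these data known. The genes named were the targeted genes and Dmwd, the 15 called genes with the largest change in each direction, given non-overlapping libraries and a mean of at least 5 RPKM in the higher group, up to 6 called members of each list by size, the 6 largest differences between genotypes in each direction, and fixed regulators. All other genes in the text, such as members that moved against the rest of their list, were chosen after their values were seen. Some genes that the rule allows are not reported here.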

Additional observations from a re-analysis of the deposited data

Results flagged for a closer look

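The change from day 0 to day 1 in TKO differed from that in WT for 1111 genes and from that in QKO for 25 genes, by limma's test of the difference of changes on log2(RPKM + 1). The values below are that difference, TKO less the other genotype, with Benjamini-Hochberg adjusted p over 11890 genes and 2 libraries per group.

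Against WT, a set of immune genes changed less in TKO, whose day 0 levels were low. H2-Aa, an MHC class II chain, had 18.2 and 23.4 RPKM at day 0 in WT and 0.393 and 0.377 RPKM in TKO (4.05, adjusted p = 3.0e-07), and H2-Eb1, another class II chain, had 35.1 and 48.5 RPKM in WT and 1.21 and 0.974 RPKM in TKO (3.64). Cd74, the class II invariant chain (3.86), Serpina3f, a serine protease inhibitor (4.04), and Cd24a, a surface sialoglycoprotein (4.06), had the same direction.

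In the other direction, Gal stayed below 1 RPKM in both WT day 0 libraries (0.914 and 0.788) and at 246 and 309 RPKM in TKO (-5.9). Ccl7 was at 1.48 and 3.08 RPKM in WT and 193 and 209 RPKM in TKO at day 0 (-5.63), and Krt18 at 0.197 and 0.422 RPKM in WT and 59.3 and 76.2 RPKM in TKO (-5.18). Ccl11, the chemokine eotaxin, differed by -4.25. C1qtnf3, a secreted adipokine, rose in both genotypes, from 4.53 and 1.81 to 712 and 481 RPKM in WT and from 45.1 and 70.7 to 459 and 461 RPKM in TKO (-4.21). Lox, lysyl oxidase, differed by -4.0, with 53.8 and 65.9 RPKM in TKO at day 0 and 1.52 and 0.911 RPKM in WT. With limma voom the calls of Krt18 (adjusted p = 0.135), Ccl11 (0.162), Serpina3f (0.229) and H2-Eb1 (0.279) were lost, and the other differences from WT given here were kept in all alternatives tried.

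Against QKO, Esm1, a proteoglycan of endothelial cells, was at 6.65 and 8.75 RPKM in QKO at day 0 and 0.477 and 0.0970 RPKM in TKO (2.74, adjusted p = 6.9e-05). The class II chains H2-Aa (2.27), H2-Ab1 (2.03) and H2-Eb1 (1.68), Serpina3g (2.02) and the GTPase Tgtp1 (1.44) fell further in QKO. Ltc4s, leukotriene C4 synthase (-1.54), the tight junction protein Cldn4 (-1.28) and the cytokine Tnfsf11 (-1.05) fell further in TKO, and Aldh1a1, a retinaldehyde dehydrogenase, rose less in TKO (-1.16), from 0.0948 and 0.0802 to 2.30 and 2.17 RPKM, than in QKO, where it reached 6.64 and 6.56 RPKM. Of the alternatives tried, between 10 (H2-Ab1) and 21 (Esm1, H2-Aa) kept these calls against QKO, with adjusted p up to 0.999.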

How the results depend on the processing

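The numbers called were 1881 higher and 5008 lower, and 3190 genes in all changed by at least 2-fold (890 higher, 2300 lower). Quantile normalization gave 3383 higher and 3141 lower, median-ratio scaling 3170 and 3315, and removal of a trend with transcript length 3305 and 2982. With a mean of at least 5 RPKM, which leaves fewer genes, 3163 were lower. Leaving out 1 library gave 5147 to 7756 genes called, 1272 to 2133 higher and 3875 to 5623 lower. No call reversed. The 30 genes with the largest changes kept their call and direction in 780 of 780 values. They were picked from these same libraries as called, non-overlapping and largest in change, so this was nearly fixed by the choice and is no support. Of 252 genes that the naming rule allows, 29 changed call in at least 1 alternative, Mbnl1, Dmpk and Dmwd among them. The difference from WT (1111 genes) became 597 with a mean of at least 5 RPKM, 681 with limma voom and 496 to 3991 with 1 library left out. The difference from QKO (25 genes) became 0 with a pseudocount of 0.1, 8 with 0.5, 0 with a mean of at least 5 RPKM, 53 with no filter, 8 in the fit of days 0 and 1 alone, 0 with limma voom and 6 to 97 with 1 library left out. The causes were not tested. The labels do not say that replicate numbers pair the samples, and 2 pairs are too few to tell from the data (deviations of same-numbered libraries correlated at 0.1981). A replicate block gave 6944 genes called, 1216 differing from WT and 10 differing from QKO.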
